A study of Bombyx mori with 64 samples.

Results

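The silk gland of the larval silkworm (Bombyx mori, bivoltine strain DaZao) was set against the other larval tissues on a one-colour microarray for microRNAs. The silk gland group comprised 8 of the 64 arrays of the series, namely the anterior silk gland (ASG) and the posterior silk gland (PSG) of females and of males on day 3 of the fifth instar, each on slides a and b. It was chosen by tissue and stage, with no use of the signals. The groups compared with it were the head (HD), body wall (BW), midgut (MG), fat body (FB), ovary (OV), testis (TE), hemocyte (HC) and malpighian tubule (MT) of larvae of the same strain and day, on 28 arrays. HD, BW, MG, FB, HC and MT came from both sexes, OV from females and TE from males. Slides a and b of a specimen carried the same RNA and were averaged, which left 4 silk gland specimens and 14 others as the units of comparison. A further 6 arrays held later silk gland (SG), with sexes mixed, from fifth-instar day 7 larvae, from larvae at 0 hours of spinning and from prepupae at 0 hours, beside BW, MG and FB of the same stages. The labels give no treatment and no allele for any group, and all larvae were fed on mulberry leaves. The number of larvae behind a specimen is not given in the sources used here, so that the spread between specimens is the only error available.

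The silk gland is a long tubular organ that makes the proteins of the cocoon. Its posterior section secretes fibroin, the fibre of the silk, and its middle and anterior sections are associated with sericin, the glue around the fibre. MicroRNAs are short RNAs that pair with messenger RNAs and reduce their translation or stability, and many of them are restricted to a few tissues. No messenger RNA was measured on this array, so the label of the organ could not be checked against the fibroin or sericin genes. The files number the 106 probes SW-1 to SW-106 without giving the microRNA behind each, and some microRNAs had replicate probes. All values are therefore given by probe. SW-7 was the only probe given a name here, and names that could be inferred from ratios between tissues were not used. Its signal in the female head was the highest of the larval arrays, which is where miR-1, a microRNA of muscle in flies and vertebrates, was described to peak.

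A signal is the mean intensity of 3 spots, on a linear scale, after background subtraction and multiplication by 1 factor per array. A probe at 1000 or more was counted as expressed, the limit used in the study. The factors ran from 0.681 to 1.21 on the silk gland arrays, against 0.635 to 3.17 on the other larval arrays. The summed signal of an array ran from 78723 to 112615 in the silk gland and from 58948 to 538936 in the other tissues. Control spots named blank read 5.33 to 136 on the silk gland arrays. They read 1889 to 2712 on the BW arrays, 173 to 2160 on the MT arrays and up to 254 on those of the other 6 tissues. Other control spots, named Blank with a capital, read 7.5 to 27.33 on the silk gland arrays. On the arrays of the other larval tissues, BW and MT included, those spots read 4.17 to 150.5. The part that the signals of either kind of blank spot have in the differences from BW and MT was not tested. The arrays carry run codes, taken here as hybridization sessions. Within day 3, ASG and PSG each had a session of its own, as did each other tissue except OV and TE, which shared 1. Tissue and session therefore cannot be told apart on day 3. The sessions of BW and MT also held arrays of the later stages.

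The 4 silk gland specimens held the same set of expressed probes. In each of them 24 probes reached 1000, and these were the same 24 in both sections and both sexes. This held for the mean of slides a and b, while single slides had 21 to 25 probes at 1000 or more. No probe reached 1000 in the silk gland alone, and 48 of the 72 probes expressed in some larval tissue were not expressed in it. BW expressed 44 probes that the gland did not, MT 26, HD 22 and the other tissues 5 to 8 each. Spots named blank read 1889 to 2712 on the BW arrays and 173 to 2160 on the MT arrays. Many of these BW and MT signals lay within or under those readings, and the part of the blank signal in the count was not tested. SW-45 was the brightest, at 11984 and 7024 in ASG of females and males and 10098 and 11317 in PSG of females and males, a mean of 10106 ± 2198 (SD, n = 4). SW-9 followed with 6712 ± 1672, SW-38 with 5507 ± 677 and SW-58 with 4468 ± 837 (SD, n = 4 each). The remaining members among the 10 brightest were SW-57, SW-25, SW-33, SW-40, SW-106 and SW-61, with means from 4312 for SW-57 to 2979 for SW-61. SW-35 was the dimmest expressed probe, at 1277 ± 381 (SD, n = 4).

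The profile of the gland was moderate in brightness. Only SW-45 exceeded 10000, in 3 of the 4 specimens. In each specimen 18 to 22 of the 24 probes lay from 1000 to under 5000. The 5 brightest probes held 30.6% to 37.6% of the summed signal of a silk gland specimen, against 24.0% in BW of females to 61.4% in FB of females among the other specimens. Per tissue, the count of expressed probes averaged 24.0 in the 2 silk gland sections and 31.1 in the other 8 tissues, a difference of −7.12 (exact permutation test over tissues, two-sided, p = 0.756). The share of the 5 brightest probes averaged 33.6% in the silk gland sections and 42.1% in the other tissues (exact permutation test, two-sided, p = 0.267). The test has 45 splits of the tissues and cannot go below 0.0222. Neither count nor share differed beyond the spread between tissues.

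Most of the expressed set was shared widely. Of the 24 probes, MT expressed all 24, HD 23, MG 22, BW 21, OV and TE 16 each, HC 15 and FB 14. In all 8 of the other tissues 12 of these probes were expressed, with SW-45, SW-9, SW-38, SW-58, SW-57, SW-25 and SW-61 among them. SW-11 had the narrowest distribution of the set, since MT was the only other tissue to reach 1000. SW-106 and SW-54 were expressed in 3 other tissues (HD, MG and MT), and SW-33, SW-8 and SW-28 in 4 (HD, BW, MG and MT). In BW, SW-33, SW-8 and SW-28 read 873 to 1941, mostly under the 1889 to 2712 of spots named blank on those arrays. In MT, SW-28 lay inside the 173 to 2160 of such spots.

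**Figure D1:**
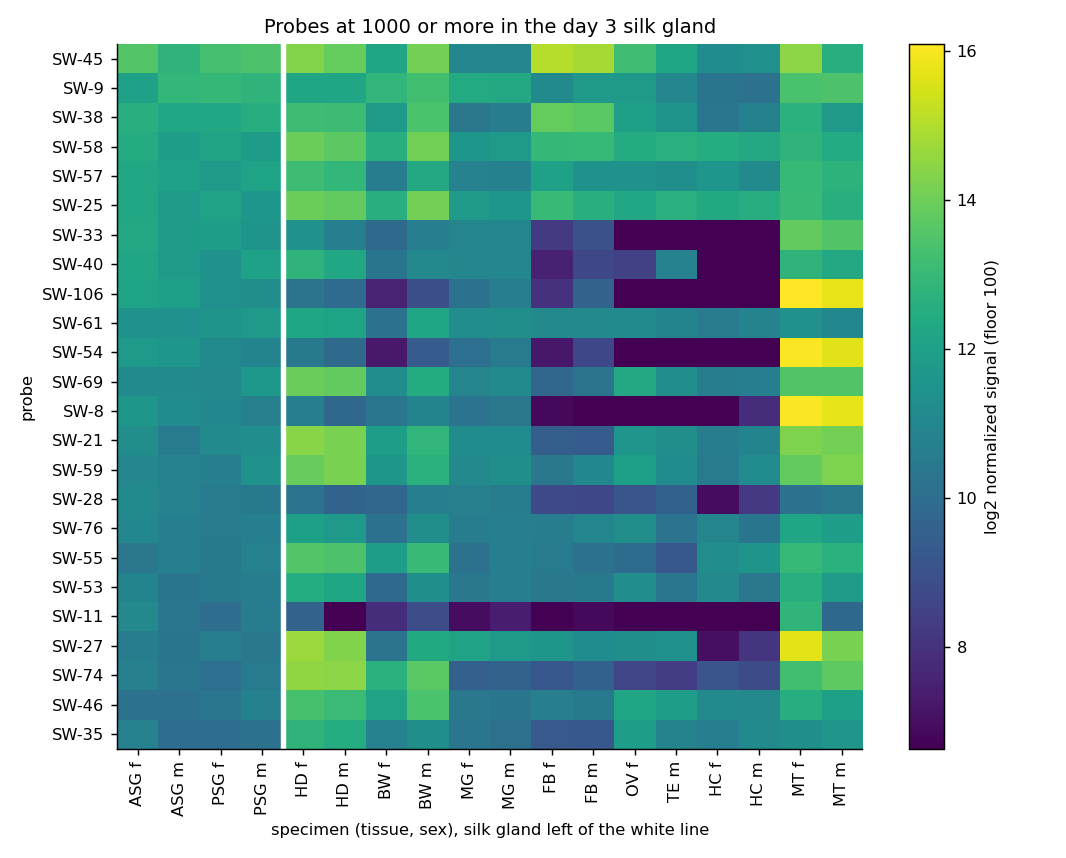
Log2 signal (signals under 100 set to 100) of the 24 probes expressed in the day 3 silk gland, in rows from the brightest, over the 18 larval specimens in columns, with the 4 silk gland specimens left of the white line. The silk gland columns are alike, while SW-33, SW-40, SW-106, SW-54, SW-8, SW-28 and SW-11 turn dark in FB, OV, TE or HC and SW-106, SW-54 and SW-8 are brightest in MT.

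To find which probes set the organ apart, log2 signals with a floor of 100 were compared with limma. The mean of ASG and PSG was set against the mean of the 8 other tissues. The error of this fit came from the differences between the female and the male specimen of a tissue, since no tissue had replicate specimens of the same sex. A total of 55 probes reached 1000 in at least 2 larval specimens and were tested, and an adjusted p (Benjamini-Hochberg) under 0.05 was taken as a call. In the silk gland 9 probes were higher (16.4% of those tested) and 30 were lower (54.5%), and 16 did not pass. The median difference over the 55 probes was −0.64 on the log2 scale. With each array centred on the median of its tested probes, all differences moved up by about 0.69, the median became 0.06, and the split became 15 higher and 14 lower. All 9 of the higher probes and 14 of the 30 lower probes were called in the same direction under both scalings. Without BW and MT, 18 were higher and 25 lower. With session as a random block, so that the spread between tissues entered the error, 1 probe was called (1.82%), and the correlation within a session was 0.909. All 9 higher probes lost their call there (smallest adjusted p among higher probes 0.761). At an unadjusted p under 0.05 that fit held 5 probes, all lower in the silk gland.

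**Figure D2:**
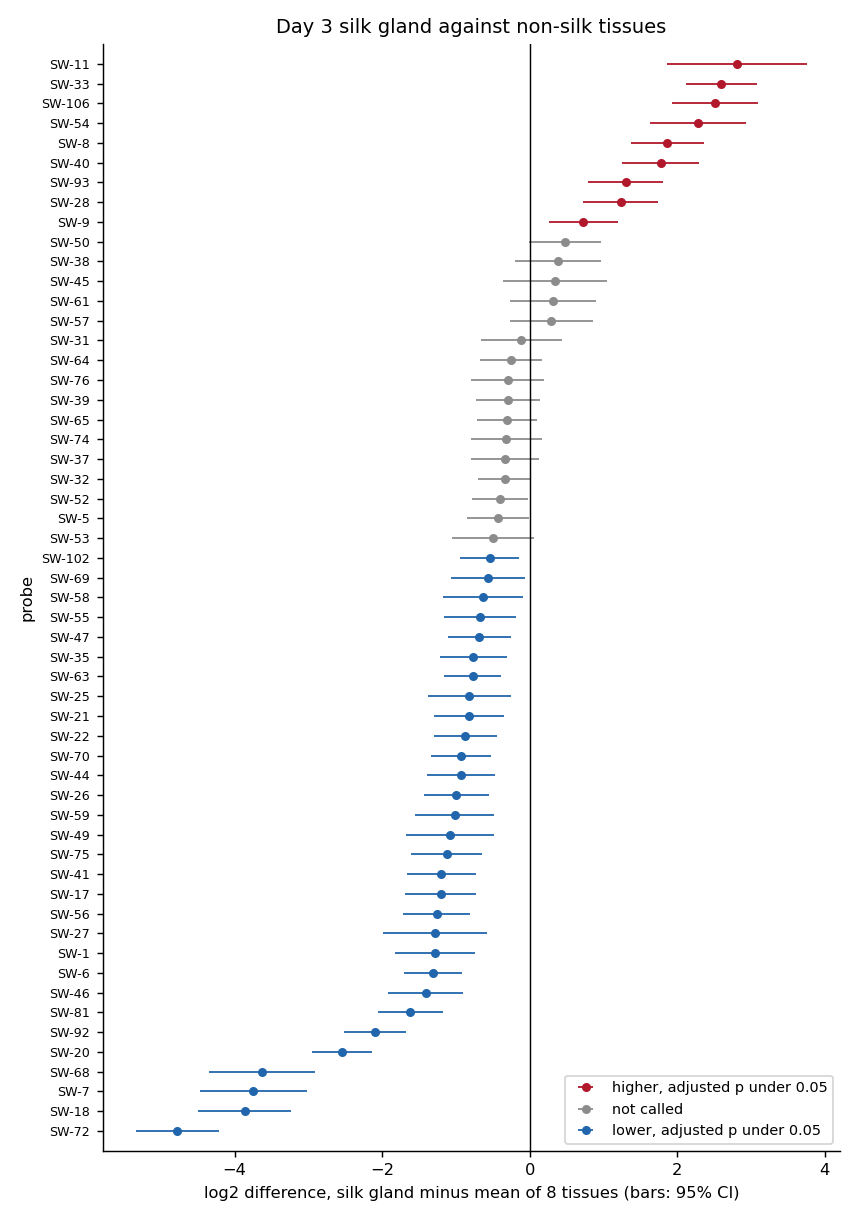
Log2 difference between the day 3 silk gland and the mean of the 8 other larval tissues for the 55 probes tested (points), with 95% confidence intervals from limma (bars). The 9 probes called higher lie between 0.73 for SW-9 and 2.81 for SW-11, and the 30 called lower reach −4.78 for SW-72.

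The probes that were higher in the silk gland were SW-11, SW-33, SW-106, SW-54, SW-8, SW-40, SW-93, SW-28 and SW-9. All but SW-93 belonged to the expressed set, which held 24 of the 55 probes tested. SW-11 read 2162 and 1323 in ASG of females and males and 1030 and 1603 in PSG of females and males. Outside the gland it read 7190 and 898 in MT of females and males and 796 in HD of females, and the other 11 specimens lay between 9.70 in FB of females and 470 in BW of males. Every silk gland specimen therefore lay above 13 of the 14 others, the exception being MT of females. The log2 difference was 2.81 (95% interval 1.86 to 3.76, adjusted p = 2.88e-05 with limma), or 7.01-fold. Outside the gland MT of females alone reached 1000, so SW-11 passed the filter of at least 2 specimens through the silk gland. Its call held without that filter. SW-11 was higher in the gland than in each of HD, BW, MG, FB, OV, TE and HC by its own test, and against MT the difference was −0.78 (interval −2.22 to 0.65, adjusted p = 0.326).

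SW-33 had a similar pattern at a higher level. It read 5260 and 3753 in ASG of females and males and 3880 and 2982 in PSG of females and males. MT read 14440 and 11920 in females and males, HD read 2912 and 1670, MG 1983 and 2028, BW 958 and 1634, and the 6 specimens of FB, OV, TE and HC lay between 11.0 and 510. The silk gland specimens exceeded 12 of the 14 others, all but those of MT. The difference from the mean of the other tissues was 2.60 (interval 2.12 to 3.08, adjusted p = 1.64e-08 with limma), or 6.07-fold, and from MT alone it was −1.75 (adjusted p = 2.28e-04).

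SW-106 and SW-54 had nearly the same profile. Their log2 signals had a Pearson correlation of 0.994 over the 18 larval specimens, a pair picked after its values were seen, and all points came from the same arrays. SW-106 read 4509 and 4007 in ASG of females and males and 2654 and 2526 in PSG of females and males, against at most 1662 in any specimen outside MT. SW-54 read 3474 and 3142 in ASG and 2246 and 1920 in PSG of females and males, against at most 1504 outside MT. In MT both were far brighter, at 69961 and 56371 for SW-106 and 68145 and 52337 for SW-54. All 12 MT spots were saturated for SW-106 and 8 of 12 for SW-54, so the MT values are lower bounds. The log2 differences were 2.51 for SW-106 and 2.28 for SW-54 (adjusted p = 2.96e-07 and 4.13e-06 with limma). Without MT they were 3.48 and 3.25.

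SW-8 shared the distribution, with 3240 and 2356 in ASG of females and males and 2107 and 1747 in PSG, against 1941 in BW of males as the highest value outside MT, which lay above PSG of males. In MT it read 66521 and 55065, with 4 of 12 spots saturated. Its difference was 1.86 (adjusted p = 1.74e-06), and 2.80 without MT. A probe could thus be higher in the silk gland than in the mean of 8 tissues and yet lie well below 1 of them. For SW-8, SW-54 and SW-106 the differences from MT were −4.72, −4.51 and −4.25, and their sizes are lower bounds because of the saturated MT spots.

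The remaining higher probes were less restricted. SW-40 read 4859 and 3429 in ASG of females and males and 2917 and 4219 in PSG, between those of HD (7047 and 5069) and MG (2052 and 2070), and its difference was 1.78 (adjusted p = 5.22e-06). SW-93 stayed below 1000 in the gland, at 932, 986, 501 and 919 in ASG of females and males and PSG of females and males, and its difference of 1.30 turned to −0.04 with a floor of 1000. SW-28 had its highest tissue mean in the silk gland, at 2269 and 1845 in ASG and 1493 and 1414 in PSG, yet MG of females and males, at 1746 and 1562, lay above both PSG specimens. SW-28 was called higher than in FB, OV, TE and HC and was not called against HD, BW, MG and MT. SW-9, bright in every tissue, had the smallest called difference at 0.73 (adjusted p = 0.00713). Its call was lost without ASG of males (adjusted p = 0.0756) and without HC (adjusted p = 0.0874).

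SW-72 separated the silk gland from the rest. It read 246 and 194 in ASG of females and males and 156 and 196 in PSG of females and males. The other 14 specimens read from 820 in BW of females to 12658 in MT of males, and HC was close to that top with 12598 and 9956. The 820 in BW of females lay under the 1889 to 2712 of spots named blank on the BW arrays. The part of the blank signal there was not tested. No silk gland specimen overlapped with any other specimen. The log2 difference was −4.78 (interval −5.34 to −4.22, adjusted p = 3.32e-11 with limma), a level 27.4 times lower, and −4.75 with session as a random block (adjusted p = 0.0106), where SW-72 was the only call. That call was lost after centring, before scaling and with a floor of 1000. SW-72 was lower in the silk gland than in each of the 8 tissues by its own test, with differences from −2.97 against BW to −5.85 against MT.

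SW-92 was the other probe without overlap. It read 417 and 435 in ASG of females and males and 327 and 350 in PSG, against 625 in MG of females as the lowest and 5240 in BW of males as the highest of the 14 others. Its difference was −2.10 (interval −2.52 to −1.68, adjusted p = 3.31e-08 with limma), and it was lower than in each of the 8 tissues, least so against MG (−0.79, adjusted p = 0.0336). With session as a random block it was not called (adjusted p = 0.503). These were 2 of 55 probes (3.64%) for which all silk gland specimens lay below all others, and for 0 of 55 (0%) they lay above all others.

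SW-7 and SW-68 were low in the gland and bright in HD, BW and MG. SW-7 read 222 and 267 in ASG of females and males and 82.5 and 152 in PSG of females and males. It read 78944 and 73289 in HD, 4445 and 24640 in BW, 12686 and 9110 in MG, 5080 and 2890 in MT and from 7.30 to 1340 in FB, OV, TE and HC. The silk gland lay below 12 of the 14 other specimens, and HC alone reached as low. SW-68 followed SW-7 over the 18 specimens (Pearson correlation 0.976, a pair picked after its values were seen) and read 92.0 to 246 in the gland, against 30712 in BW of males and 18688 and 19837 in HD. The differences were −3.75 for SW-7 and −3.63 for SW-68 (adjusted p = 2.73e-08 and 3.24e-08 with limma). Both were called under centring as well.

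SW-18 and SW-20 were low in the gland and in MG. SW-18 read 293 and 239 in ASG of females and males and 103 and 178 in PSG, against 152 and 203 in MG and 731 to 10469 in every other specimen. Its difference from the mean of the other tissues was −3.87 (adjusted p = 3.22e-09). SW-20 read 117 to 311 in the gland, against 216 and 204 in MG, 240 in TE and 1216 to 4690 in the rest, a difference of −2.54 (adjusted p = 3.22e-09). Silk gland and MG were thus the 2 lowest organs for both, and MG was not called against the gland for either.

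The 10 largest differences in the lower direction were completed by SW-81, SW-46, SW-6 and SW-1, with differences of −1.62, −1.41, −1.31 and −1.28. Their patterns differed. SW-46 was expressed in the gland, at 1166 to 1771, and was lower there than in HD, BW, OV, TE and MT. SW-81 was lower in the gland (223 to 326) than in BW, MG, FB, OV, TE and MT but higher than in HD and HC. SW-6 and SW-1 were each lower in the gland than in HD, BW, MG and MT. SW-6 was at or under the floor of 100 in FB, OV, TE and HC, so the mean of the other tissues rests on the floor there, and with a floor of 10 its call was lost. Of the 30 lower probes, 21 were not expressed in the gland, which expressed 24 of all 55 probes tested.

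**Figure D3:**
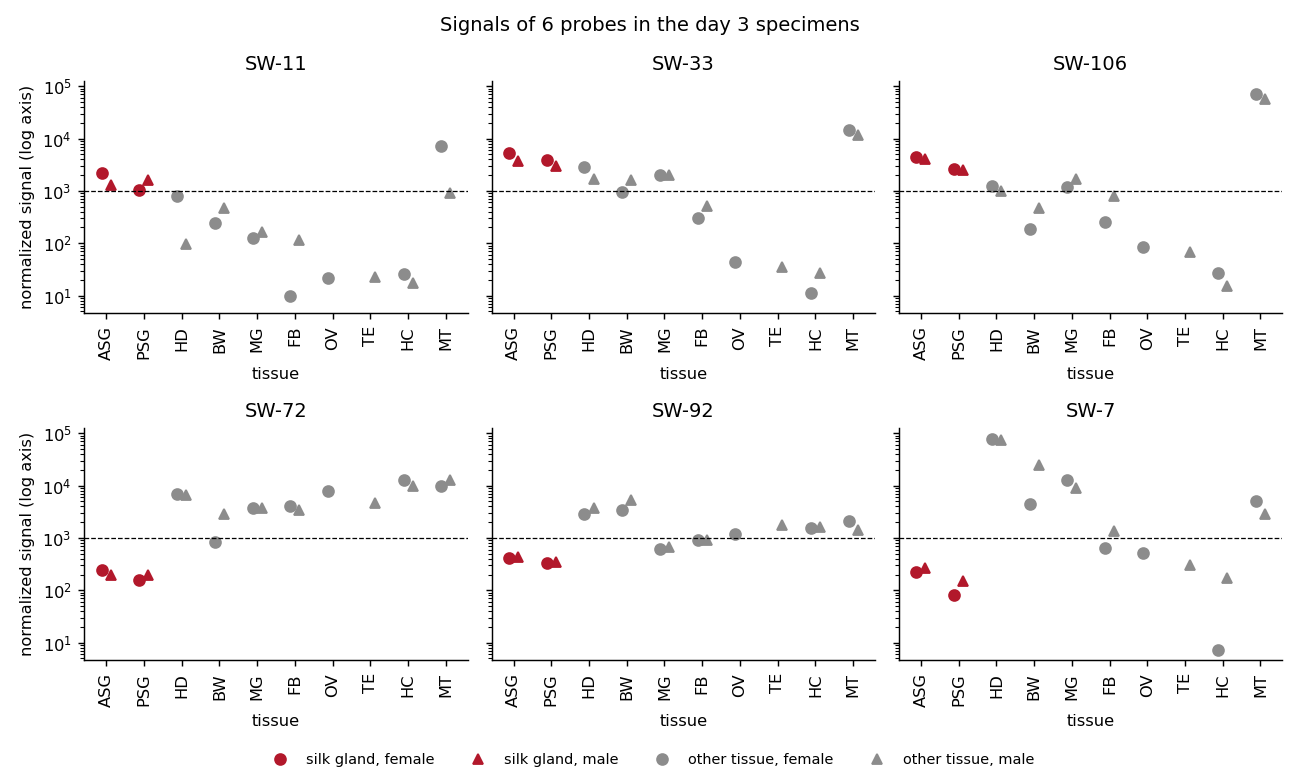
Normalized signal (log axis) of SW-11, SW-33, SW-106, SW-72, SW-92 and SW-7 in each of the 18 larval specimens, with silk gland in red at the left, circles for females, triangles for males and a dashed line at 1000. For SW-11, SW-33 and SW-106 the silk gland lies above most tissues with MT as the exception, and for SW-72 and SW-92 all 4 silk gland points lie below all grey points.

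Set against each tissue in turn, the silk gland differed in both size and direction. Over the 440 pairs of probe and tissue, 90 were higher (20.5%) and 162 lower (36.8%) in the silk gland, with p adjusted over all pairs. After centring, 173 were higher and 126 lower, so this split depends on the scaling. MT had the largest number of calls in 1 direction, with 0 higher and 41 lower, followed by BW with 6 higher and 38 lower and HD with 5 higher and 36 lower. HC gave the opposite picture, with 28 higher and 6 lower, and FB gave 21 higher and 10 lower. MG and TE had the fewest calls, MG with 8 higher and 11 lower and TE with 12 higher and 7 lower, which left 36 probes not called for each. OV had 10 higher and 13 lower. With 1 specimen each, OV and TE had larger standard errors, so a difference of a given size was less readily called against them. These comparisons share the 4 silk gland specimens and are not independent of each other.

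The levels of the gland were ordered most like those of MT. Across the 55 probes, the mean log2 signals of the silk gland had a Pearson correlation of 0.693 with MT, 0.579 with MG, 0.542 with FB, 0.442 with HC, 0.440 with TE, 0.423 with HD, 0.404 with OV and 0.282 with BW. The points are probes on the same arrays, and the values are descriptions. MT thus stood closest in pattern and, as scaled by the authors, farthest in level, with a median difference over the 55 probes of −2.21. Differences in level depend on that scaling. MG was near in both, with a median difference of 0.08. BW and MT, where spots named blank were bright, had 38 and 41 probes lower in the gland. HD, where those spots read at most 254, had 36. The part of the blank signal in these counts was not tested.

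**Figure D4:**
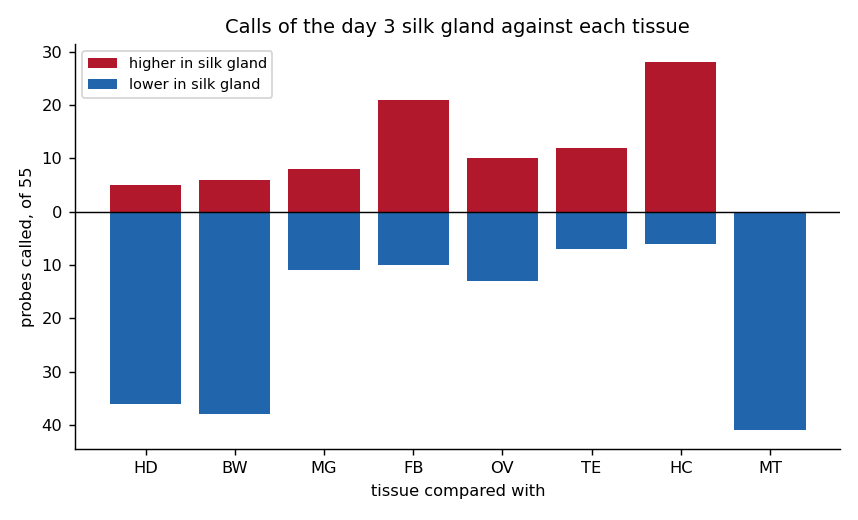
Number of the 55 probes called higher (above the line) and lower (below the line) in the day 3 silk gland than in each of the 8 tissues, adjusted over all 440 pairs. MT, BW and HD show 41, 38 and 36 lower probes, and HC and FB show 28 and 21 higher probes.

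Within the gland the specimens were alike. The 6 pairs of silk gland specimens had Pearson correlations of 0.966 to 0.987 across the 55 probes, and slides a and b of 1 specimen had 0.966 to 0.990. The median SD among the 4 silk gland specimens was 0.33 on the log2 scale, against 1.43 over all 18. Between the sections, 1 probe of 55 was called (1.82%). SW-63 read 687 and 645 in ASG of females and males and 254 and 268 in PSG of females and males, without overlap, a difference of 1.35 (interval 0.66 to 2.04, adjusted p = 0.0340 with limma). All of these lie below 1000. SW-63 was lower in the silk gland as a whole than in the mean of the other tissues, by 0.77 on the log2 scale, a call lost on centring. The count of section calls was 0 without any 1 specimen of HD, ASG, PSG, MG, FB or MT, 3 without either BW specimen, 8 before scaling and 5 on slide b alone. At an unadjusted p under 0.05, 6 probes differed. The sections also lay in different sessions.

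Between females and males of the silk gland no probe was called (0 of 55, 0%) by limma, and none had an unadjusted p under 0.05. The median size of the difference was 0.28 on the log2 scale, with a median standard error of 0.43. With 2 specimens of each sex and adjustment over 55 probes, differences of 1 and somewhat above could also have gone uncalled. The sex difference in the gland was also not called to differ from that in HD, BW, MG, FB, HC and MT for any probe (0 of 55, 0%, and 0 at an unadjusted p under 0.05).

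Later SG offered other RNA of the same organ, with tissues and sessions mixed in part. The arrays of this set had been scaled by another method, so levels are not set against those of day 3. Spots named blank were bright there, at 457 to 4123 (median 3401) on the SG arrays. On the arrays of BW, MG and FB these spots read 99.0 to 3811 (median 1277). Their part in the later differences was not tested. Over 87 tested probes, 13 were higher (14.9%) and 7 lower (8.05%) in SG than in the mean of BW, MG and FB, with stage in the model. With session as a block 23 were higher and 13 lower, and with centred arrays 4 were higher and 19 lower. The count of higher probes moved without single specimens, to 24 without BW, 6 without SG and 31 without MG of day 7 larvae, to 20 without FB at spinning, and to 34 without BW, 5 without SG and 8 without MG of prepupae. The count of lower probes was 4 without SG of prepupae.

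SW-11 was the highest call in later SG by a wide margin. It read 17863 in SG of day 7 larvae, 22131 at the onset of spinning and 7719 in prepupae, against 60.5 to 699 in the 9 specimens of BW, MG and FB. The groups did not overlap, and the lowest SG value was over 10 times the highest of the others. The log2 difference was 6.08 (interval 4.87 to 7.30, adjusted p = 5.21e-19 with limma), 6.29 with session as a block (adjusted p = 2.31e-05), and 6.20 and 6.69 within the 2 sessions that held SG beside other tissues, where stages were not balanced. Probes were tested in this set if they reached 1000 in at least 2 specimens, and SW-11 passed this filter through the SG specimens alone. The filter thus used the same SG signals that were then tested. The call held in each setting tried for this set, the one without the filter on dim probes included.

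The next probes in the higher direction were SW-106, SW-54, SW-40 and SW-59. SW-106 read 7242, 3671 and 10567 in SG of day 7 larvae, spinning larvae and prepupae, against 9296 to 20468 in MG and 84.3 to 1789 in BW and FB. Its difference was 2.19 (adjusted p = 5.07e-05), and every SG value lay above those of BW and FB, while every MG specimen but that of prepupae lay above every SG value. SW-54 showed the same order, with 9193, 3695 and 9058 in SG, against 9374 to 15883 in MG and 186 to 2252 in BW and FB, a difference of 1.84 (adjusted p = 0.00115). SW-40 read 7199, 10744 and 9853 in SG, against 897 to 8061 in the other tissues, a difference of 1.68 (adjusted p = 0.00352). SW-59 read 12053, 20811 and 3642 in SG and 838 to 17484 elsewhere, a difference of 1.58 (adjusted p = 0.00603). SW-59 was also not called without SG of spinning larvae (adjusted p = 0.193) or without SG of prepupae (adjusted p = 0.0753), and SW-54 not without SG of day 7 larvae (adjusted p = 0.0791). Before scaling and after centring, SW-40, SW-54 and SW-59 lost their later calls, and SW-106 lost it after centring (adjusted p from 3.85e-05 to 0.0608 over its alternatives).

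Among the later probes in the lower direction, SW-72 had the largest difference. It read 1653, 1733 and 649 in SG of day 7 larvae, spinning larvae and prepupae, against 2057 to 29963 in BW, MG and FB, and no values overlapped. The difference was −3.07 (adjusted p = 3.55e-09 with limma), and −2.70 and −3.89 within the 2 sessions. SW-68, SW-100, SW-7 and SW-92 followed with −2.66, −2.62, −2.32 and −1.68. SW-7 read 4651, 1812 and 4199 in SG, against 23735 to 60597 in BW and MG and 1043 to 11011 in FB, so that it was lower than in BW and MG while overlapping with FB. SW-7 was saturated on 12 of 18 BW spots, and its size there is a lower bound. All SG values of SW-72 lay under the median blank signal of the SG arrays.

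For a comparison with the same other tissues on day 3, ASG and PSG were set against BW, MG and FB alone. No day 3 array held the middle section, and the labels do not say which sections later SG comprised. The day 3 and later silk gland samples may therefore differ in their sections as well as in stage. There 8 probes were higher (14.5%) and 23 lower (41.8%) of 55. All 55 probes were tested in both sets, and no array is shared between them. Day 3 BW lay in the same session as later SG of day 7 larvae and of prepupae. In the higher direction 7 probes were called at both, which is 87.5% of the 8 day 3 calls and 70.0% of the 10 later calls among these probes. They were SW-8, SW-11, SW-33, SW-40, SW-54, SW-93 and SW-106. For SW-8 and SW-33, later MG lay above SG in day 7 and in spinning larvae, and below SG in prepupae. All later SG values of SW-93 lay under the median signal of the spots named blank on the SG arrays. In the lower direction 6 probes were called at both, which is 26.1% of the 23 day 3 calls and all 6 of the later calls. They were SW-1, SW-7, SW-27, SW-68, SW-72 and SW-92. The later calls of the higher probes depended on the processing. With centred arrays 1 of the 7, SW-11, was still called later, and before scaling 2 were, SW-11 and SW-106. SW-93 lost its later call in 13 of 20 alternatives, with session as a block among them (adjusted p = 0.0572), SW-33 in 6 and SW-8 in 4. Of the 6 lower probes all were still called with centred arrays and with session as a block, and 3 before scaling, SW-7, SW-68 and SW-72. SW-11 differed by 3.08 on day 3 and 6.08 later, and SW-72 by −3.83 and −3.07.

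Not every day 3 difference was seen later. SW-5 was called in opposite directions, lower by 0.94 on the log2 scale on day 3 (adjusted p = 0.00147) and higher by 1.56 later (adjusted p = 0.00713), and it is named because it was the only such probe. Within the day 3 set SW-5 read 1162 and 1749 in BW of females and males, below the 1889 to 2712 of blank spots on the BW arrays. Within the later set it read 2060 to 3457 in SG, inside the 457 to 4123 of blank spots on the SG arrays. The part of the blank signal in either call was not tested. SW-18 and SW-20, both lower on day 3 by 2.75 and 2.07 on the log2 scale against BW, MG and FB, differed by −0.76 and −0.12 later and were not called (adjusted p = 0.172 and 0.830). The difference between day 3 and later differences was not tested.

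**Figure D5:**
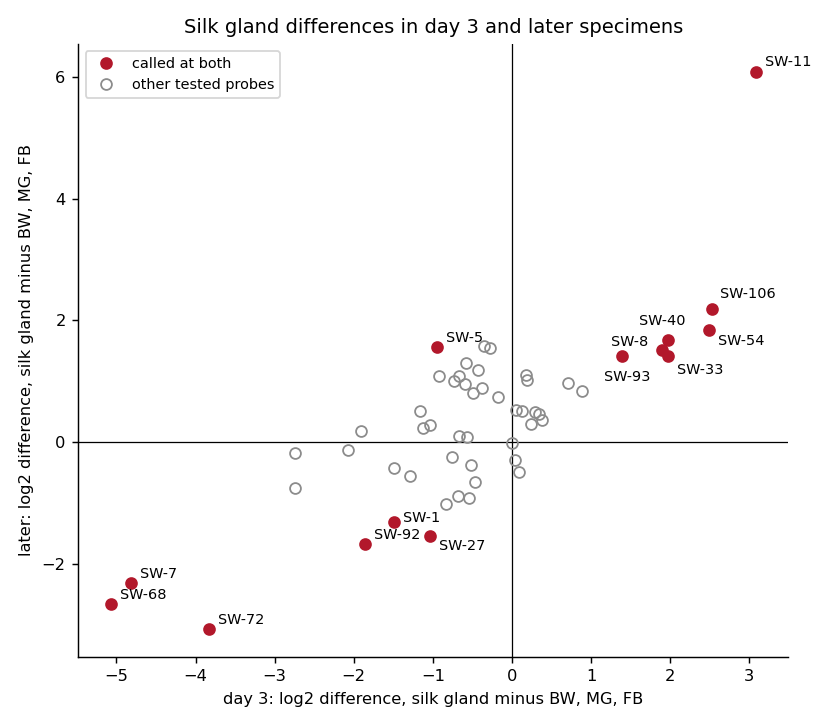
Log2 difference between silk gland and the mean of BW, MG and FB for the 55 probes tested in both sets, on day 3 (x axis) and in later specimens (y axis), with probes called in both sets filled in red and named. SW-11 stands apart at the upper right with 3.08 and 6.08, SW-72, SW-68 and SW-7 lie at the lower left, and SW-5 is the 1 probe called in opposite directions.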

How the data were processed

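Per the labels and methods, low molecular weight RNA was labelled with Cy3 and hybridized to arrays with 106 miRNA probes in 3 spots each. The authors extracted intensities with LuxScan, subtracted local background, set negative spots to 10, excluded flawed spots and scaled each array by 1 factor, based on U6 and 5S rRNA for larval tissues (net 5S signals of 62587 to 64274 on silk gland arrays, near saturation) and on a global median for later stages. Deposited intensity values, equal in the series table and the array files, were used. Signals under 100 were set to 100, taken to log2 and averaged over slides. Limma 3.58.1 in R 4.3.3 fitted 10 tissue means, with eBayes and a trend, and 95% intervals. OV and TE, with 1 specimen each, are assumed to vary like the rest, and differences against specimens at the floor are understated. Python 3.11.15 and scipy 1.17.1 gave permutation tests. Fits were tested on simulated data.

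Probes were named by a rule: the 10 largest calls per direction, calls with session as a block, probes without overlap, calls between sections or sexes, the 5 largest later calls per direction and those shared with day 3, the 10 brightest probes, and SW-7, SW-11, SW-63 and SW-72. The members and lists were chosen with earlier results of these data known. Lists of named microRNAs (muscle, nervous system, heterochronic, Hox cluster, growth, gut and tubule) were not run, since no source used here pairs probes with names. Day 1 pupae were not used. Alternatives comprised floors, filters, scalings, single slides, and leaving out specimens or tissues. Leaving out each non-silk tissue in turn, and the later alternatives of single probes, were added after the data were seen. Columns mapped to no sample numbered 0. Precision is limited by the number of arrays.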

Additional observations from a re-analysis of the deposited data

Results flagged for a closer look

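SW-93 in PSG of females, at 501, lay far below the other silk gland specimens, at 932 and 986 in ASG of females and males and 919 in PSG of males. Its gap to the nearest specimen was 0.892 of the range of the 4 on the log2 scale, above Dixon's 95% critical value for 4 values. This was 1 flag among 29 groups examined, and chance flags about 1 in 20.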

How the results depend on the processing

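The largest day 3 differences held their direction and call in all 37 alternatives for SW-72, SW-7, SW-18, SW-68, SW-20 and SW-92 (lower) and for SW-33, SW-106, SW-54, SW-40 and SW-28 (higher). These 37 do not include the fit with session as a random block, in which SW-72 alone kept its call and SW-7, SW-18 and SW-68 had an adjusted p of 0.352, SW-20 and SW-92 of 0.503 and the 5 higher probes of 0.761. SW-11 and SW-8 lost their calls with a floor of 1000 alone. Over all named probes, 994 day 3 alternatives kept direction and side of the threshold, 26 lost and 14 gained a call, and 2 turned, namely SW-58 to 0.0586 with centred arrays and SW-93 to −0.0383 with a floor of 1000. For the later set 514 kept, 45 lost and 15 gained a call, and 6 turned with no call on either side, namely SW-6, SW-9, SW-38, SW-45 and SW-61 with centred arrays and SW-9 with session as a block. The cause was not tested except where an alternative itself removed specimens or raised the floor.

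Centred arrays gave 15 higher and 14 lower day 3 probes, 0 calls with session as a random block, 173 higher pairs, and 4 higher and 19 lower later probes. A floor of 1000 gave 0 calls with the random block, 48 higher and 100 lower pairs, 0 section calls and 32 higher later probes. Signals before scaling gave 0 calls with the random block, 8 section calls, and 2 higher and 4 lower later probes. Without BW and MT, 18 day 3 probes were higher. Section calls were 0 with a floor of 10, 2 without the filter on dim probes, 0 with slide a alone and 5 with slide b alone. Without the filter 8 later probes were higher, and with session as a block 23 were higher and 13 lower. Leaving out single specimens gave 0 to 3 section calls, 5 to 34 higher later probes and 4 to 10 lower later probes. Sex as a block left 9 higher and 30 lower.

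Bright signals of the spots named blank on BW, MT and later arrays, and saturated spots in MT and later BW, limit these values.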
